A study of Mus musculus with 6 samples.

Results

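The cytochrome P450 genes of families 1 to 4 (Cyp1, Cyp2, Cyp3 and Cyp4) were followed in mouse colon with and without the histone deacetylase HDAC2 in the intestinal epithelium. Members were all probe sets whose platform annotation gave exactly 1 gene symbol beginning with Cyp, a family number from 1 to 4, a subfamily letter and a number. These were 69 probe sets for 56 genes, out of 45101 probe sets on the array and 18193 genes named by a single symbol. Family Cyp1 had 3 genes, Cyp2 35, Cyp3 5 and Cyp4 13. The rule used names only and no measured value.

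Cytochrome P450 enzymes are heme-containing monooxygenases of the endoplasmic reticulum that take electrons from the reductase Por and insert oxygen into lipophilic substrates. Members of families Cyp1, Cyp2 and Cyp3 oxidise drugs, plant compounds, steroids and arachidonic acid, whereas Cyp4 enzymes hydroxylate the tail end of fatty acids and eicosanoids. Many are induced through ligand-activated receptors: AHR for Cyp1 genes, PXR and CAR for Cyp2b, Cyp2c and Cyp3a genes, and PPAR-alpha for Cyp4a genes. The liver holds most of these enzymes, and the intestinal epithelium expresses a subset of its own.

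Colon RNA of 3 control mice was compared with that of 3 HDAC2 KO mice, one array per sample. In HDAC2 KO, a floxed Hdac2 allele was crossed with a Cre transgene driven by the villin promoter, so the deletion was directed to epithelial cells and other cells of the colon kept the gene. All animals were untreated, ate a normal diet and came from a mixture of the strains CD-1, 129 and C57BL/6. No source used here states their age, or whether controls carried the floxed allele or the transgene. The title and genotype of the KO samples name HDAC2 alone, while their description names HDAC1 as well. The source label names colon epithelium and a numbered mouse, and the extraction text names the colon. Whether a sample is 1 animal or a pool is not settled, since signals of both sexes were read on every array as given below; for pools, n and the spread would be those of pools.

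Values are RMA signals on a log2 scale, on which a difference of 1 is a 2-fold change. Each difference is HDAC2 KO minus control with its standard error (SE), and n = 3 arrays per group. Hdac2 itself read 10.37 to 10.43 in control and 10.12 to 10.24 in HDAC2 KO on its strongest probe set, a difference of -13.7% (adjusted p = 0.00893). Whether these probes fall inside the deleted part of the gene is not known here, so this checks the label only in part. Hdac1, its close relative, was higher by 0.15 (SE 0.039, adjusted p = 0.0321). In the fit over all probe sets described below, neither call was kept (adjusted p = 0.0768 for Hdac2 and 0.181 for Hdac1). The other Hdac2 probe sets differed by -0.22 and -0.08 and were not called there (0.253 and 0.867). Markers of colonic epithelium were strong, with 11 of 11 measured genes between 10.81 and 14.48. Smooth muscle (7 of 7, 10.20 to 13.64) and leukocyte genes (9 of 10 above the background reference described next) were also read, so the RNA was not of epithelium alone. Signals of the X-linked Xist lay between 11.99 and 12.04 in control and 11.52 and 11.56 in HDAC2 KO. The Y-linked Eif2s3y lay between 7.48 and 7.56 in control and 7.89 and 8.32 in HDAC2 KO, so both sex-linked signals were present on every array and differed between the groups. Several P450 genes of the liver are known to differ between the sexes, and the part of this difference in the results was not tested.

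How many members carried signal was read against 44 probe sets of olfactory receptors, genes not looked for in colon, whose 95th percentile was 6.14. By that mark 24 of the 56 P450 genes (42.9%) stood above background, against 12160 of all 18193 genes. Each gene was read on its strongest probe set. Of all probe sets on the array, 50.6% lay above the mark. A signal depends on the probes as well as on the transcript, so levels of different genes are not ranked against each other. Gene tests were run on the 10916 genes whose strongest probe set averaged at least 6.66 over both groups. This left 23 of the P450 genes tested, 17 of Cyp2, 1 of Cyp3, 5 of Cyp4 and 0 of Cyp1. The other 33 genes lay below the filter and are described through a second fit over all 45037 non-control probe sets. Among the tested genes, Cyp4f14, Cyp2b10 and Cyp2c70 had control means below 6.66 (6.47, 6.62 and 6.63). They reached the filter only through their HDAC2 KO signals.

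Of the 23 tested genes, 9 were called at an adjusted p under 0.05, 5 higher and 4 lower in HDAC2 KO. Calls made up 39.1% of tested members, where 17.9% of all tested genes were called, 9.68% higher and 8.2% lower. A call with a fold of at least 1.5 was made for 4 of the 23, or 17.4%, against 1.48% of all tested genes. These shares include Cyp4f14, which was tested only because of its HDAC2 KO signal. The median difference of the tested members was 0.078, and that of all genes tested was 0.0032. The groups did not overlap for 15 members, or 65.2%, against 37.7% of all tested genes. In the fit over all probe sets, 13 of the 69 member probe sets were called, 8 higher and 5 lower, where 3.8% of all probe sets were called, 1.72% higher and 2.08% lower. The count of lower probe sets fell to 2 without control replicate 1, control replicate 2 or HDAC2 KO replicate 3, and to 3 without control replicate 3 or HDAC2 KO replicate 1 or with the replicate number as a block. In a bulk sample, fewer cells of a type and less RNA per cell cannot be told apart.

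**Figure D1:**
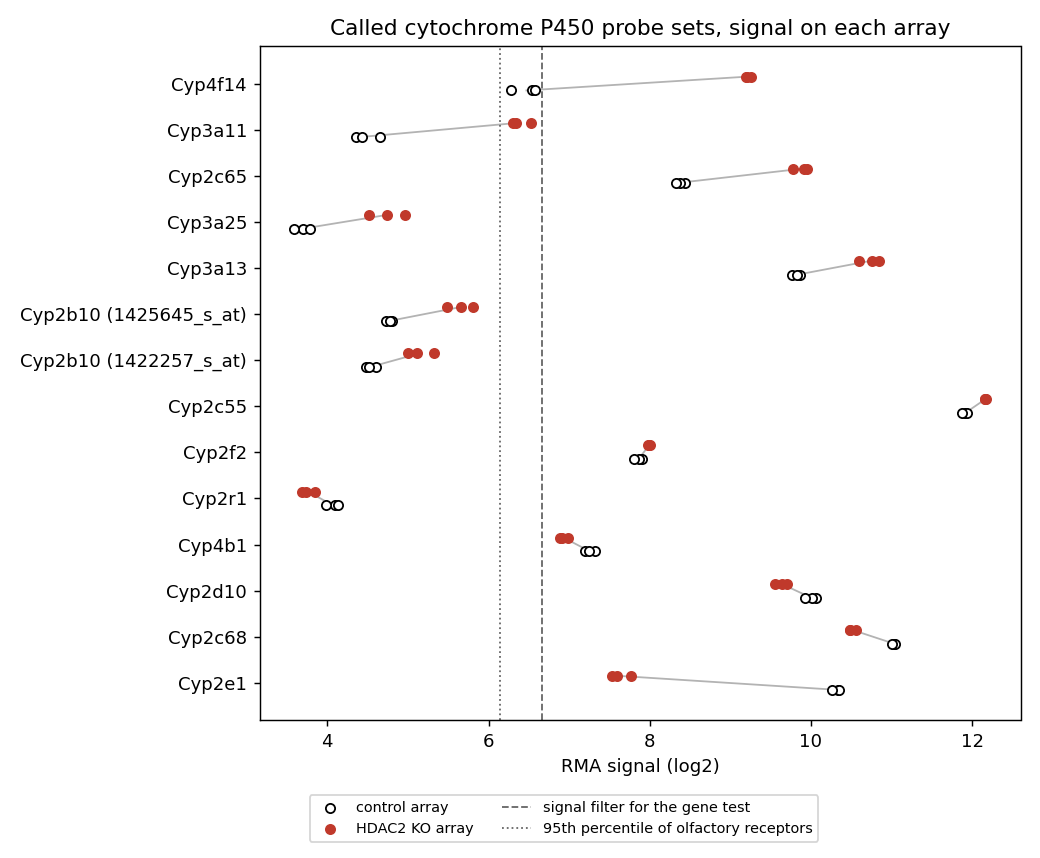
Signal on each array (RMA, log2) of the 14 member probe sets called in either fit, ordered by difference. Open circles are control arrays, filled circles HDAC2 KO arrays, and grey lines join the group means; for Cyp3a11, Cyp3a25, Cyp2b10 and Cyp2r1 the 2 groups are apart but their means over both groups lie below the filter at 6.66.

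**Figure D2:**
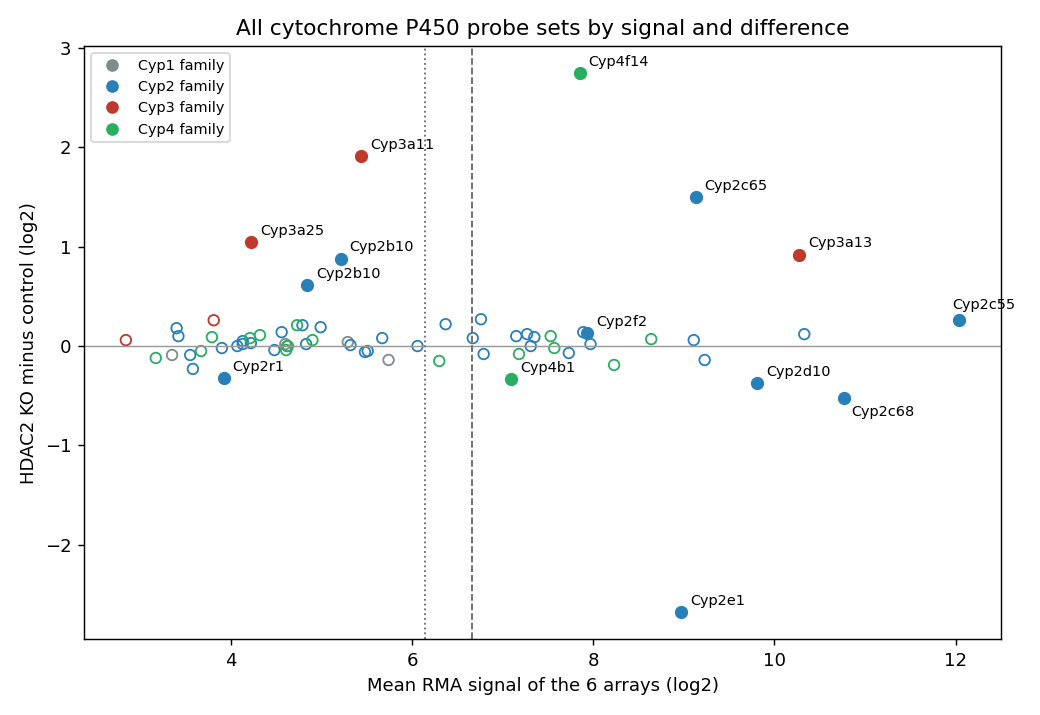
Difference between groups (log2) against mean signal (log2) for all 69 member probe sets, coloured by family, filled where called in either fit. The dashed line is the filter at 6.66 and the dotted line the olfactory receptor mark at 6.14; open points lie between -0.23 and 0.27, a range that also holds the called Cyp2f2 and Cyp2c55, and the other called points lie outside it.

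The Cyp3a subfamily holds the main steroid and drug oxidising P450 enzymes of liver and intestine. In the fit over all probe sets, where 1.72% of all probe sets were called higher, 3 of its 5 members had a probe set called, all higher. Their start regions are shown because 2 of the 3, Cyp3a11 and Cyp3a25, are adjacent coding genes that rose together, while Cyp3a44 and Cyp3a16 in the same stretch of the chromosome were not called. The sequences are from RefSeq (GRCm38.p6), run from 250 bases before to 50 after the annotated start, and lie on the minus strand at chr5:145879805-145880104 (Cyp3a11), chr5:146009568-146009867 (Cyp3a25, one of its start sites), chr5:145805825-145806124 (Cyp3a44), chr5:145469674-145469973 (Cyp3a16) and chr5:137921570-137921869 (Cyp3a13). Capitals mark the nuclear receptor half-site AGGTCA, the TATA box letters TATAAA, and the CDX core TTTATG, each looked for on both strands.
Cyp3a11: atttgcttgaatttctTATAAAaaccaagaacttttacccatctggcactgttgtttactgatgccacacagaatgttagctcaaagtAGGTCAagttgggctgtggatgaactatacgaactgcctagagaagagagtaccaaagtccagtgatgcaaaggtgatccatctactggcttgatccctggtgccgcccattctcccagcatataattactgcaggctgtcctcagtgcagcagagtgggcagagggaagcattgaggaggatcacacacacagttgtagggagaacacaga
Cyp3a25: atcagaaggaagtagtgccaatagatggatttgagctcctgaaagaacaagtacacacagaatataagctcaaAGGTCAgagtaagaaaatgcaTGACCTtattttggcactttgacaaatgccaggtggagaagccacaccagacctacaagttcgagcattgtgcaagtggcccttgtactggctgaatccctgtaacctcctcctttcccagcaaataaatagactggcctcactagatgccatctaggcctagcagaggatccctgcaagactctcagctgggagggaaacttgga
Cyp3a44: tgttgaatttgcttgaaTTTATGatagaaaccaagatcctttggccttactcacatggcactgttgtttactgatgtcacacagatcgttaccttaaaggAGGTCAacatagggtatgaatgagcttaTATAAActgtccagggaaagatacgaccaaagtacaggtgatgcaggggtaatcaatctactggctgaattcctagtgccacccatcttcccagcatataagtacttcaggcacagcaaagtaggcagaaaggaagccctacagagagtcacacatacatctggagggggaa
Cyp3a16: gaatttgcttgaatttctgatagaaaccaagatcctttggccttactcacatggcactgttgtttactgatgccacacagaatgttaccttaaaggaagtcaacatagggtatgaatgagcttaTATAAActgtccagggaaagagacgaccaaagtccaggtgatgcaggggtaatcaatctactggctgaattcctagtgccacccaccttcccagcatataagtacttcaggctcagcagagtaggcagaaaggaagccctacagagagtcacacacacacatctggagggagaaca
Cyp3a13: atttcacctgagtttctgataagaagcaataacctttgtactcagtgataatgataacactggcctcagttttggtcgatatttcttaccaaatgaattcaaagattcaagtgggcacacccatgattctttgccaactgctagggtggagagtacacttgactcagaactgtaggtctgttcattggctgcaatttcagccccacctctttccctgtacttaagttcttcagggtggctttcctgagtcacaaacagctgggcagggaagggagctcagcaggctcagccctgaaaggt

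AGGTCA stood 162 bases before the start of Cyp3a11, 150 before that of Cyp3a44, and at 177 and, on the other strand, 156 before that of Cyp3a25. No copy lay in the windows of Cyp3a16 and Cyp3a13. Aligned over the window, Cyp3a44 and Cyp3a16 were 95.9% identical, Cyp3a11 and Cyp3a16 82.2%, and Cyp3a11 and Cyp3a25 66.0%. The half-site thus occurred both in called and in uncalled Cyp3a genes, and 16.3% of all 32851 promoter windows held it on either strand, against 26.5% of the 49 windows of the members. A match is a description of letters and no binding site.

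Cyp3a11, the mouse counterpart of the main human drug-oxidising CYP3A enzyme, read 4.36, 4.66 and 4.43 in control and 6.34, 6.30 and 6.53 in HDAC2 KO. The groups lay far apart, with every control below and every KO signal above the olfactory receptor mark. The difference was 1.91 (SE 0.094, 3.75-fold, adjusted p = 5.81e-05 over all probe sets). The fold thus sets a signal within the range of background against one just above it.

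Cyp3a25, whose gene follows Cyp3a11 on the chromosome, read 3.70, 3.79 and 3.59 in control and 4.74, 4.52 and 4.97 in HDAC2 KO. Its 6 signals all stayed below 6.14 although the groups did not overlap, so the difference of 1.05 (SE 0.11, adjusted p = 0.00274) is between low signals. Both genes kept their call without any single array and with the replicate number as a block.

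Cyp3a13 was the Cyp3a member above the filter and lies away from the other 4, on the same chromosome. It read 9.86, 9.76 and 9.83 in control and 10.76, 10.59 and 10.84 in HDAC2 KO, without overlap, and rose by 0.92 (SE 0.064, 1.89-fold, adjusted p = 5.42e-05). Cyp3a44 read 3.68 and 3.94 on average, with overlapping groups and a 95% interval of the difference from -0.08 to 0.60. Cyp3a16 averaged 2.84 over the 6 arrays, with an interval from -0.11 to 0.22.

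Cyp2b10, the classical gene induced through the receptor CAR, was measured by 3 probe sets that differed. The strongest read 6.40, 6.76 and 6.71 in control and 6.94, 7.04 and 6.69 in HDAC2 KO. Its groups overlapped, and the difference of 0.27 (SE 0.11, adjusted p = 0.147) was not called. The second read 4.80, 4.73 and 4.78 against 5.81, 5.66 and 5.49, a rise of 0.88 (SE 0.081, adjusted p = 0.00128). The third read 4.60, 4.48 and 4.52 against 5.0, 5.33 and 5.11, a rise of 0.61 (SE 0.086, adjusted p = 0.00988). Both rises lay below the background mark and came from a probe set type that can bind several transcripts. The smaller one was lost with the replicate block (adjusted p = 0.0539) and without control replicate 2 (0.0514) or control replicate 3 (0.0535). The gene's strongest probe set was called higher without HDAC2 KO replicate 3 (adjusted p = 0.0474) and with array weights (0.0211). The other Cyp2b members, Cyp2b9, Cyp2b13 and Cyp2b19, had means between 3.90 and 5.51 and differences between -0.05 and -0.02.

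The Cyp2c subfamily, which makes epoxides from arachidonic acid and oxidises drugs, had calls in both directions. Of its 11 genes, 5 were tested, 2 rose and 1 fell, where 9.68% of all tested genes were called higher and 8.2% lower. The Cyp2c genes lie in a row, beginning with Cyp2c55 and Cyp2c65 as direct neighbours. Cyp2c55, a colon-expressed member, read 11.91, 11.94 and 11.87 in control and 12.17, 12.16 and 12.16 in HDAC2 KO. The step was small and without overlap, 0.26 (SE 0.033, 1.20-fold, adjusted p = 0.00133). In the fit over all probe sets (adjusted p = 0.0234) its call was lost with the replicate block (0.0846) and on leaving out any array but HDAC2 KO replicate 2 (0.0731 to 0.108).

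Cyp2c65 read 8.44, 8.38 and 8.33 in control and 9.91, 9.78 and 9.95 in HDAC2 KO. All KO signals exceeded all control signals, by 1.5 on average (SE 0.051, 2.82-fold, adjusted p = 9.37e-07). Its sole probe set is of the type that can bind several transcripts, and the next gene in the row, Cyp2c66, has no probe set among the 69, so the signal may be shared between them.

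Cyp2c68, 4 members further along the row, fell. It read 11.03, 11.04 and 11.01 in control and 10.56, 10.49 and 10.48 in HDAC2 KO, a difference of -0.52 (SE 0.035, 1.43-fold lower, adjusted p = 4.48e-05). Its probe set is not of the type that can bind several transcripts. The neighbouring genes Cyp2c67 and Cyp2c40 have no probe set among the 69, and how far their transcripts add to this signal was not tested. Between Cyp2c65 and Cyp2c68, the genes Cyp2c29 and Cyp2c39 lay below the background mark, and Cyp2c38 differed by -0.08 (SE 0.059, adjusted p = 0.381). Beyond Cyp2c68, Cyp2c37, Cyp2c54 and Cyp2c50 also lay below that mark and Cyp2c70 differed by 0.08 (SE 0.059, adjusted p = 0.412). Cyp2c23, an arachidonic acid epoxygenase that lies apart from the row, read 4.69 and 4.90 on average and was not called.

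**Figure D3:**
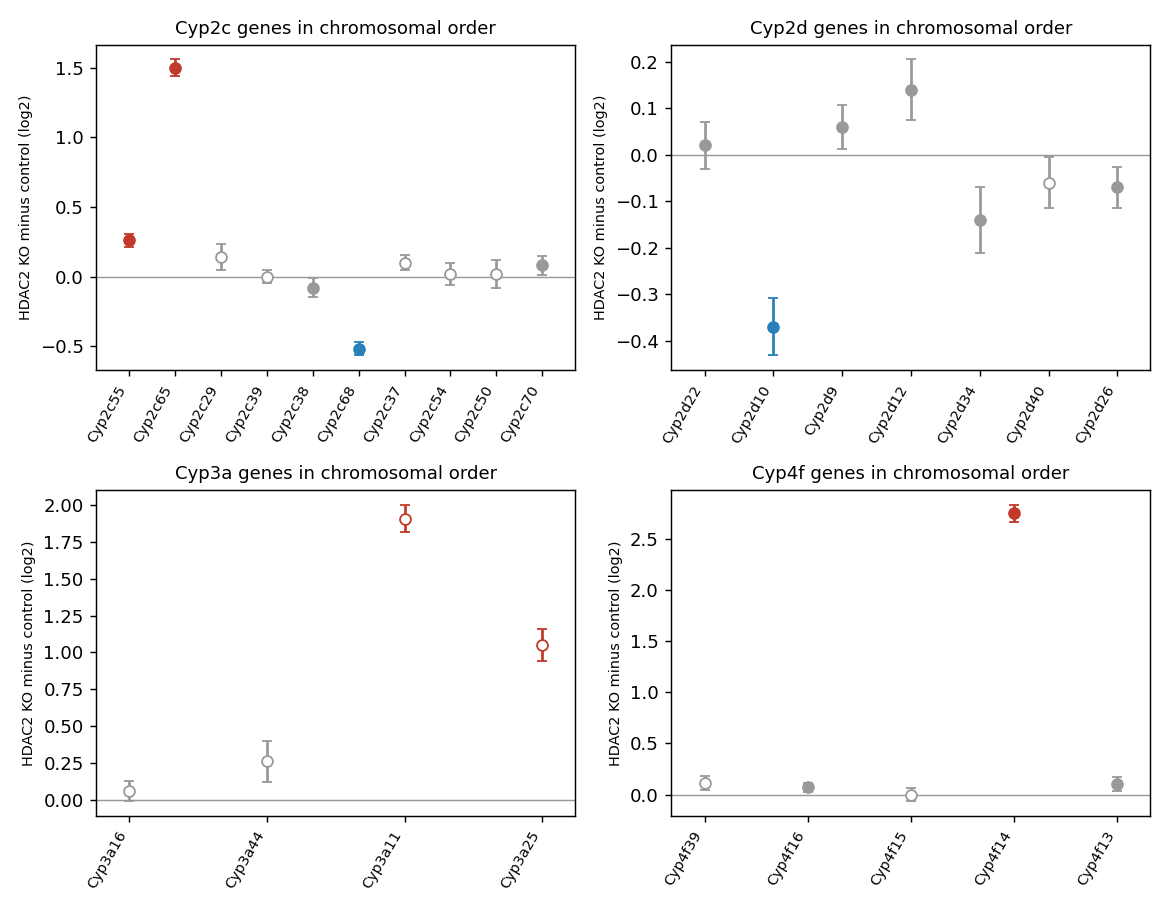
Difference between HDAC2 KO and control (log2) with its SE from the fit over all probe sets, for members of 4 gene rows in the order of the RefSeq annotation; members outside the rows are left out, and the vertical scales differ. Red marks higher and blue lower calls, grey marks no call, and open symbols have a mean signal below the olfactory receptor mark; called members stand beside uncalled ones in each row.

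The Cyp2d subfamily, whose human member oxidises many drugs with a basic nitrogen, had 7 of its 8 genes tested. Of these 7, 1 was called, where 17.9% of all tested genes were called. Cyp2d10 read 10.06, 10.01 and 9.92 in control and 9.70, 9.55 and 9.64 in HDAC2 KO, without overlap, and fell by 0.37 on the log2 scale (SE 0.052, adjusted p = 0.00218). Its call held in all 16 alternatives of the gene test, but in the fit over all probe sets the adjusted p was 0.0904 when control replicate 1 was left out, 0.0871 for control replicate 2, 0.0593 for HDAC2 KO replicate 3 and 0.0559 with the replicate block. The gene beside it, Cyp2d9, read 9.05 to 9.09 in control and 9.11 to 9.18 in HDAC2 KO, and its difference of 0.06 (SE 0.035, adjusted p = 0.264) was not called. The other tested Cyp2d genes, Cyp2d12, Cyp2d13, Cyp2d22, Cyp2d26 and Cyp2d34, differed by between -0.14 and 0.14. Groups did not overlap for 4 of the 7 tested Cyp2d genes, against 37.7% of all tested genes. Of these 4, 3 missed the threshold: Cyp2d9, Cyp2d12 and Cyp2d26.

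Cyp2e1, which oxidises ethanol and other small molecules and is expressed in liver and fat, fell the most of all members. Its signal was 10.33, 10.35 and 10.26 in control but 7.60, 7.77 and 7.53 in HDAC2 KO. The groups were separated by more than 2 log2 units, and the fall was -2.68 (SE 0.062, 6.41-fold, adjusted p = 1.35e-07). All 6 tested adipocyte markers were called lower too, with a median of -1.9, where 8.2% of all tested genes were called lower. The list's summed linear signal lay between 13902 and 14633 in control and between 3307 and 3591 in HDAC2 KO. Adipoq, encoding the fat hormone adiponectin, went from between 10.25 and 10.37 to between 7.26 and 7.32, and the fatty acid binding protein gene Fabp4 from between 11.26 and 11.35 to between 9.07 and 9.27. Of 8 adipocyte markers on the array, 1, Lep, lay below the background mark. The part of adipocyte RNA in the fall of Cyp2e1 was not tested. Hepatocyte markers, of interest because liver is rich in Cyp2e1, lay below that mark for 7 of 11 genes. Alb, under the filter, read between 6.43 and 6.73 in control and between 5.89 and 6.08 in HDAC2 KO. Its difference was -0.61 (adjusted p = 0.0108 over all probe sets). The summed linear signal of the hepatocyte list lay between 3212 and 3245 in control and between 2256 and 2277 in HDAC2 KO. Most of that sum came from the transthyretin gene Ttr, which fell by 0.67 on the log2 scale. The part of hepatocyte genes in the result was not tested.

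Among the smaller Cyp2 subfamilies, Cyp2f2, a lung-type enzyme that oxidises naphthalene, read 7.91, 7.87 and 7.81 in control and 7.98, 7.99 and 8.0 in HDAC2 KO. Its rise of 0.13 (SE 0.037, adjusted p = 0.0498) lay just under the threshold and its call was lost in 12 of 14 alternatives, among them the replicate block (0.0718) and the omission of any array (0.0660 to 0.119). Cyp2s1, an epithelial enzyme, read 10.25, 10.32 and 10.24 against 10.43, 10.36 and 10.37. Its groups did not overlap, and the difference of 0.12 (SE 0.039, adjusted p = 0.0786) was not called in the main test but was with an intensity trend and robust variances together (0.0406) and with array weights (0.00903). Cyp2j6, of an epoxygenase subfamily, differed by 0.09 (SE 0.064, adjusted p = 0.361) and was called higher without HDAC2 KO replicate 2 (0.0385). The other Cyp2j6 probe set, at a mean of 7.31, differed by 0.00 (SE 0.055, adjusted p = 0.988 over all probe sets).

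Cyp2r1, a vitamin D 25-hydroxylase, read 4.10, 3.99 and 4.13 in control and 3.69, 3.85 and 3.73 in HDAC2 KO. It fell by 0.32 on the log2 scale (SE 0.064, adjusted p = 0.041 over all probe sets) between signals below the background mark. The call was lost with the replicate block (adjusted p = 0.133) and without any array but HDAC2 KO replicate 2 (0.0708 to 0.159). Cyp2a12, Cyp2g1 and Cyp2u1 lay below 6.14 and differed by between 0.00 and 0.03.

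In family Cyp4, Cyp4f14, of a subfamily that inactivates leukotriene B4 and hydroxylates long fatty acids, rose the most of all members. It read 6.54, 6.58 and 6.28 in control and 9.25, 9.20 and 9.21 in HDAC2 KO, a difference of 2.75 (SE 0.074, 6.74-fold, adjusted p = 2.64e-07). Control signals lay just above the background mark and KO signals far above it. The control mean of 6.47 was below the filter at 6.66, and the HDAC2 KO mean was 9.22. Cyp4f14 thus entered the gene test through its HDAC2 KO signal. The gene next to it, Cyp4f13, read 7.53, 7.58 and 7.35 against 7.57, 7.56 and 7.62, with overlapping groups and a difference of 0.10 (SE 0.060, adjusted p = 0.314).

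Cyp4f16, of the same row, read 8.59 to 8.61 in control and 8.65 to 8.70 in HDAC2 KO. These groups did not overlap, and the difference of 0.07 (SE 0.032, adjusted p = 0.176) was not called, except with array weights (0.0248). The other Cyp4f16 probe set differed by -0.02 (SE 0.054, adjusted p = 0.919 over all probe sets), with overlapping groups. Cyp4f18, expressed in myeloid cells, read 6.34 to 6.39 in control and 6.14 to 6.27 in HDAC2 KO, under the filter, and its difference of -0.15 (SE 0.053, adjusted p = 0.205 over all probe sets) was not called. The other Cyp4f18 probe set, below the background mark, differed by 0.21 (SE 0.11, adjusted p = 0.383 over all probe sets). Of all tested genes, 8.2% were called lower. Leukocyte markers were called lower in 9 of 9 tested cases, with a median of -0.68, and mast cell markers in 2 of 3. Within the leukocyte list, the myeloid markers Csf1r and Lyz2 differed by -0.29 and -0.32, and Itgam, below the background mark, by 0.01. The T cell marker Cd3d differed by -1.37. The part of leukocyte and mast cell RNA in the Cyp4f18 values was not tested. Cyp4f15, Cyp4f39 and the pseudogene Cyp4f41-ps lay below the background mark.

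Cyp4b1, which hydroxylates medium-chain fatty acids and bioactivates some toxins, read 7.20, 7.32 and 7.25 in control and 6.91, 6.99 and 6.89 in HDAC2 KO. It fell by 0.33 on the log2 scale (SE 0.044, adjusted p = 0.0017), without overlap. In the fit over all probe sets the call was lost without any array but HDAC2 KO replicate 2 (adjusted p from 0.0561 to 0.0861). Cyp4v3, a fatty acid hydroxylase, went from 8.34, 8.33 and 8.30 to 8.22, 8.01 and 8.18. Its difference of -0.19 (SE 0.056, adjusted p = 0.0551) missed the threshold and passed in 5 of 16 alternatives. The other Cyp4v3 probe set differed by -0.08 (SE 0.092, adjusted p = 0.729 over all probe sets), with overlapping groups. The Cyp4a genes, classical PPAR-alpha targets of liver and kidney, all lay below 6.14: Cyp4a12a, Cyp4a14 and Cyp4a31 differed by between -0.05 and 0.09. Cyp4x1 read 4.63 and 4.59 on average.

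Family Cyp1, the classical targets of the dioxin receptor AHR, stayed below the background mark throughout. Cyp1a1 read 5.30, 5.28 and 5.25 in control and 5.19, 5.43 and 5.32 in HDAC2 KO, with a 95% interval of the difference from -0.12 to 0.20. Cyp1a2 had an interval from -0.13 to 0.14. Cyp1b1, also expressed outside epithelium, read 5.78, 5.76 and 5.89 against 5.62, 5.76 and 5.63 on its strongest probe set, with an adjusted p of 0.314. Differences of the size seen for Cyp3a11 lay outside all 3 intervals, which hold for the signal and not for a transcript under the background.

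The 14 tested members that were not called differed by between -0.19 and 0.27. The 30 members below the filter without a called probe set differed by between -0.23 and 0.26. Of the 56 genes, 11 had several probe sets. Among these, called and uncalled probe sets of the same gene occurred for Cyp2b10. The member just inside the filter was Cyp2c70, at a mean of 6.67, and the one just outside was Cyp4f18, at 6.30.

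Transcripts of the proteins that P450 enzymes depend on were read next; in this and the following lists, 17.9% of all tested genes were called, and a call lost in the fit over all probe sets is given with its adjusted p there. Of 8 tested redox partners, 1 was lower and 0 were higher, with a median of 0.003. The called gene was Cyb5a, encoding cytochrome b5, at -0.13 (SE 0.036, adjusted p = 0.048), a call lost over all probe sets (0.244). Por was not analysed here. Of 7 tested genes of heme synthesis, 1 rose and 2 fell, with a median of 0.02. Fech, which inserts iron to form heme, differed by 0.16, Alad by -0.16 and Ppox by -0.25. All 3 calls were lost over all probe sets (adjusted p = 0.197, 0.136 and 0.159). The rate-limiting Alas1 differed by 0.09 (SE 0.033, adjusted p = 0.107). In heme breakdown 1 of 3 tested genes rose, the biliverdin reductase gene Blvra, by 0.17 (adjusted p = 0.175 over all probe sets).

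Of 21 tested receptors and transcription factors known to control P450 genes, 3 were higher and 4 lower, with a median of -0.026. Without the signal filter 2 were higher and 1 lower. The PXR gene Nr1i2 read 8.91, 9.0 and 8.89 in control and 8.93 on each HDAC2 KO array (difference -0.01, SE 0.038, adjusted p = 0.946). The CAR gene Nr1i3 lay below the background mark, at 5.20 and 5.31. Ahr differed by -0.04 (SE 0.057) and Ppara by -0.01 (SE 0.038). Pparg, the receptor of fat and of colonic surface cells, was higher by 0.35 (SE 0.066, adjusted p = 0.00854), and the bile acid receptor gene Nr1h4 by 0.20 (SE 0.036, adjusted p = 0.00669, and 0.0701 over all probe sets). Ppard was higher by 0.15 (0.161 over all probe sets). Lower were Foxa2 by -0.25 (adjusted p = 0.00261), Cebpa by -0.15, Nr1h3 by -0.17 and the glucocorticoid receptor gene Nr3c1 by -0.16. The calls of Cebpa, Nr1h3 and Nr3c1 were lost over all probe sets (adjusted p = 0.175, 0.198 and 0.213). Signal of the transcript says nothing of the activity of these receptors.

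Targets of the same receptors outside the P450 family were counted next. Of 7 tested PXR and CAR targets, 2 rose and 1 fell, with a median of 0.088. Aldh1a1, a retinaldehyde dehydrogenase, rose from between 10.73 and 10.77 to between 11.12 and 11.16, and Abcb1a, the drug efflux pump P-glycoprotein, from between 11.58 and 11.63 to between 11.83 and 11.94 (adjusted p = 0.00172). Gsta3, a glutathione transferase gene, fell by 0.23 on the log2 scale (adjusted p = 0.0102, and 0.0765 over all probe sets). Of 10 tested PPAR-alpha targets, 1 rose and 3 fell: Pdk4 by 0.57, Cd36 by -1.41, Angptl4 by -0.49 and Plin2 by -0.25. Fabp1, of the same list but under the filter, was higher by 2.1 (adjusted p = 1.67e-05 over all probe sets). Cd36 and Plin2 are also abundant in fat cells, whose markers were lower as given above. Of the 2 tested AHR targets, Tiparp and Nqo1, 0 were called.

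Among 12 tested genes of eicosanoid synthesis and epoxide hydrolysis, whose products Cyp2c, Cyp2j and Cyp4f enzymes make or use, 1 rose and 2 fell. Ephx4, of the epoxide hydrolase family, was higher by 0.32 (SE 0.058, adjusted p = 0.00706). Lta4h, which makes leukotriene B4, was lower by -0.13 (adjusted p = 0.042) and Alox5ap by -0.17 (0.0426), both lost over all probe sets (0.227 and 0.191). Under the filter, Ptgs2 differed by 0.33 (adjusted p = 0.0378 over all probe sets). Hpgds, whose mean lay below the background mark, differed by -0.46 (0.0122). The soluble epoxide hydrolase gene Ephx2 differed by -0.08 (SE 0.054, adjusted p = 0.39). In the P450 families outside 1 to 4, 1 of 5 tested genes rose, the sterol demethylase gene Cyp51, by 0.21 (adjusted p = 0.0231, and 0.123 over all probe sets), while Cyp27a1 and Cyp39a1 differed by 0.01 each.

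Genes of small intestinal enterocytes, a cell type known to express Cyp3a11 and Cyp2b10, were mostly higher as well: 4 of 6 tested rose and 1 fell, with a median of 0.50. The list's summed linear signal lay between 4889 and 5139 in control and between 8695 and 8928 in HDAC2 KO. Apoa4, an apolipoprotein gene, rose by 2.17 (adjusted p = 1.05e-06), the fatty acid binding protein gene Fabp2 by 0.85 and the retinol binding protein gene Rbp2 by 0.16 (0.0419, and 0.194 over all probe sets). Apob, another apolipoprotein gene, fell by 0.20 on the log2 scale (0.00908, and 0.0838 over all probe sets). Fabp1 and Apoc3, under the filter, differed by 2.10 and 1.36. The alkaline phosphatase gene Alpi went from between 7.23 and 7.39 to between 8.52 and 8.58. The lactase gene Lct went from between 4.16 and 4.83 to between 5.58 and 6.08, which is below the background mark in both groups. Fabp6, of ileal enterocytes, differed by -0.16 (adjusted p = 0.16). Of the colonic epithelium list, 3 of 11 rose (Cdx2, Krt20 and Car1), with a median of 0.087, and Cdx2 was lost over all probe sets (adjusted p = 0.0545). The part of a changed cell makeup in these rises was not tested.

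**Figure D4:**
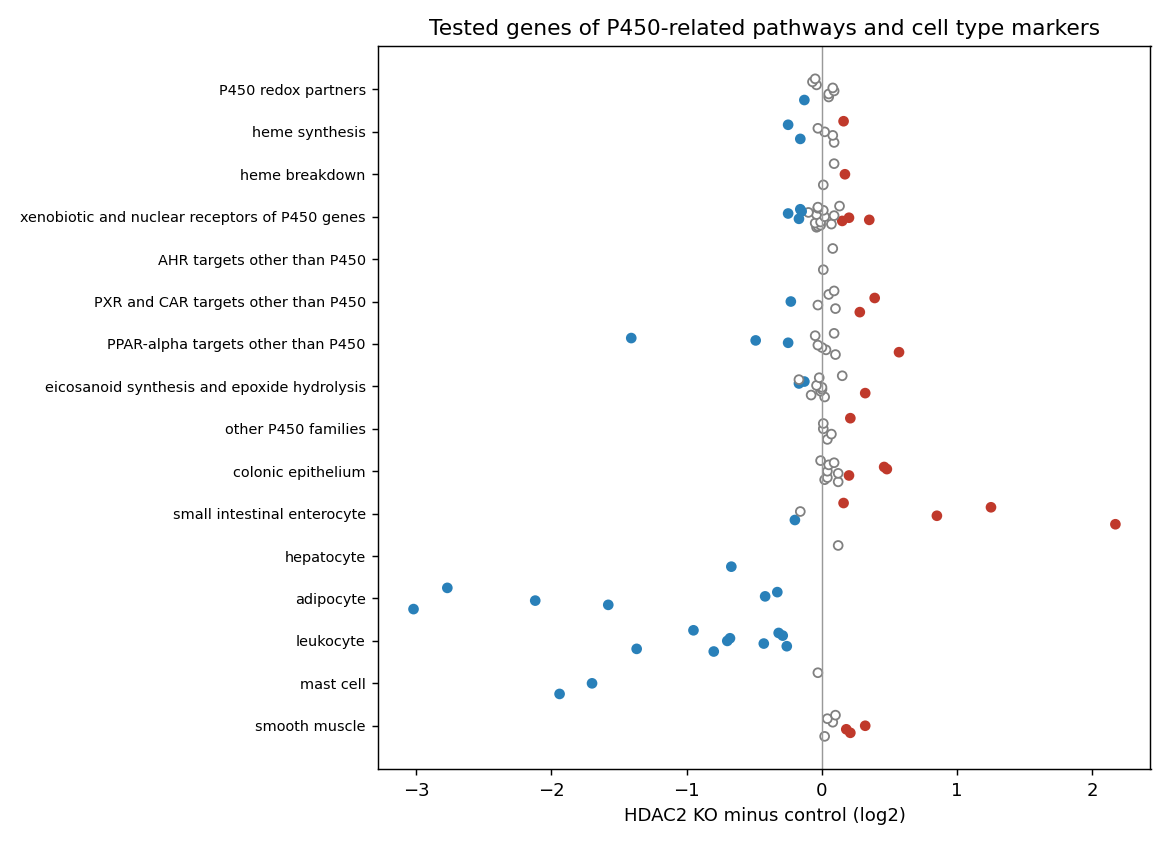
Difference between HDAC2 KO and control (log2) of each tested gene in the P450-related lists and in 7 cell type marker lists, 1 point per gene, spread vertically for clarity. Red marks higher and blue lower calls and open points no call; adipocyte, leukocyte and mast cell points lie left of 0 or at it, small intestinal enterocyte points mostly right, and redox partners, heme genes and receptors within 0.4 of 0.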

How the data were processed

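The deposited values are log2 signals made by the authors with RMA, per the submitters' processing notes (version not stated), and ran from 2.39 to 14.6 with array medians of 6.17 to 6.21. Symbols were taken from the array's 2016 annotation (34945 probe sets with 1 symbol, 932 with several, 9160 with none), and all 56 member genes matched RefSeq by Entrez identifier. The probe set of highest mean stood for each gene, and genes at or above the 40th percentile of gene means were tested by moderated linear models on the group alone (limma 3.58.1, lmFit with eBayes, under R 4.3.3). P-values were adjusted by Benjamini and Hochberg's method across the tested genes. A companion fit took all 45037 non-control probe sets. The fits were run on simulated probe set values, where the only check was that the mean estimate lay near the change set in advance. No limit was set there on false or missed calls. Every adjusted p is limma's. Intervals are 95% intervals of that fit.

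Named are all called members, the member of highest signal in each subfamily, members with a called probe set, and up to 4 tested genes of smallest p per list; further members and list genes (among them Nr1i2, Nr1i3, Ahr, Ppara, Ppard, Alb, Lct, Fabp6, Cyp4f18 and row neighbours) were chosen after their values were seen. Members and lists were chosen with earlier results of these data known. The labels name 1 numbered mouse per sample, but pools cannot be told apart from single animals here, so p-values measure the spread between samples. Same-numbered arrays of the 2 groups deviated together (r from 0.20 to 0.34, other pairs -0.37 to 0.18), so the replicate number was tried as a block. The number of arrays, 3 per group, limits precision. Scan dates were not used here.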

Additional observations from a re-analysis of the deposited data

How the results depend on the processing

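Alternatives changed the signal filter, the probe set per gene, the normalization, the variance model, array weights, the replicate block, the probe sets used, and each array. Higher members in the gene test, 5 in the main test, numbered 3 with the filter at the 60th percentile, 9 with array weights and 3 without probe sets that can bind several transcripts. Without 1 array there were 4 to 6 higher and 4 to 5 lower members. Member probe sets called higher, 8 in the fit over all probe sets, numbered 5 without that probe set type and 6 to 8 without 1 array, and those called lower, 5, numbered 3 with the replicate block and 2 to 6 without 1 array. Over all genes, 1952 calls became 3506 with array weights, 926 in the fit that took each probe set singly, and 1130 to 2107 without 1 array. The replicate block removed no call of the gene test among members but that of Cyp2f2. None of the 14 member genes and 5 member probe sets recomputed under the alternatives changed sign; other named members were not recomputed. Cyp2c55, Cyp2c68, Cyp2d10, Cyp2e1 and Cyp3a13 kept their call in all 16 alternatives, and Cyp2c65, Cyp4b1 and Cyp4f14 in the 15 that could measure them. The called Cyp4f14 and Cyp2f2 lay below the filter at the 60th percentile and so were not tested there. The probe sets of the called Cyp2c65 and Cyp2f2 are of the type that can bind several transcripts, so they dropped out without that type. Causes of the other shifts were not tested. Low signal limits Cyp3a11, Cyp3a25, Cyp2b10 and Cyp2r1.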

Other observations

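Probe sets named by several symbols stayed outside the rule. The 4 that carry a P450 symbol of families 1 to 4 were not called in the fit over all probe sets. Cyp3a41a and Cyp3a41b, in the same row as Cyp3a11, shared a probe set that read 2.71, 2.97 and 2.90 in control and 3.15, 2.75 and 3.20 in HDAC2 KO (difference 0.18, SE 0.13, adjusted p = 0.576). Cyp4a10 shared one with Cyp4a31, at 3.46 and 3.68 on average (adjusted p = 0.292), so this PPAR-alpha target also lay below the olfactory receptor mark of 6.14. The probe set of Cyp2a4 and Cyp2a5 averaged 5.22 and 5.36 (adjusted p = 0.555), and that of Cyp4f16 and Cyp4f37 8.26 and 8.18 (adjusted p = 0.624).

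The xenobiotic response element core TNGCGTG was found on either strand in 1 of 49 member windows, that of Cyp2c68, against 5.07% of all windows. TATAAA was found in 36.7% of member windows, against 13.6% of all. Of the 8 genes called higher in either fit, 3 held AGGTCA and 3 TATAAA in a window. GTTAAT, an HNF1 half-site, was found in 6.12% of member windows against 7.1% of all, and TTTATG, a CDX core, in 12.2% against 11.9%. These motifs were searched in 43 of the 56 members, those with an entry in the promoter table.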
